A study of Mus musculus with 8 samples.

Results

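The genes that drive chromosome segregation and DNA replication were examined in whole lungs of 21-day-old mice, as 42 genes chosen by symbol for their place in the cell cycle. Of these, 41 had a probe set annotated with only their own symbol, and each was read from the brightest such probe set, out of 19937 genes measured in all. They comprise 25 of 26 mitosis genes and all 16 genes of DNA replication and entry into S phase. Ccnb1, which encodes cyclin B1, had no probe set of its own, so its expression was not analysed here. The rule for membership uses gene function and no measured value, but the genes were chosen with earlier results of these data known.

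One array was hybridised per lung, with total RNA from untreated tissue. The first group consisted of 4 lungs with a stabilized form of beta-catenin, which carries the canonical Wnt signal to target genes, and the second of 4 lungs with a knockout of beta-catenin, all at postnatal day 21. No source used here names the promoter or Cre driver, the altered exons or the cells that carried either allele, and lungs with unmodified beta-catenin were not analysed here. A difference is therefore one between the groups, with no unmodified level for either. Replicates are described as biological, and values are log2 expression.

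Proliferating cells express these genes in sequence. In late G1 and S phase, E2F transcription factors switch on genes that load the MCM helicase onto replication origins, supply deoxynucleotides and build the replication fork. In G2 and M phase, the MuvB complex with B-MYB and FOXM1 switches on cyclin B, mitotic kinases, kinetochore proteins and spindle motors, and in resting cells the related DREAM complex holds both sets down. Most cells of the lung divide less and less as alveoli mature after birth, so a whole-lung value averages a small cycling fraction over many resting cells. In such bulk RNA, fewer cells of a type and less RNA per cell cannot be told apart.

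Promoters of mitosis and of replication genes differed in the motifs they held, and those of some of the genes are shown here. Windows in the RefSeq promoter table (GRCm38.p6) were found for 21 mitosis genes, Ccnb1 among them, and 13 replication genes, each running from 250 bases before an annotated start to 50 bases after it. Searched were TTTGAA (CHR, the cell cycle genes homology region that MuvB complexes bind), CCAAT (the CCAAT box, bound by NF-Y) and TTCCCGC or TTGGCGC (cores of E2F sites), each on both strands. Each stretch below is the 250 bases before a start, 5' to 3' on the strand of the gene, and capitals mark whole matches of any of these motifs. They belong to the 3 mitosis and the 3 replication genes with the smallest p in the comparison that also had a window.

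Prc1 (chr7:80294226-80294475, plus strand): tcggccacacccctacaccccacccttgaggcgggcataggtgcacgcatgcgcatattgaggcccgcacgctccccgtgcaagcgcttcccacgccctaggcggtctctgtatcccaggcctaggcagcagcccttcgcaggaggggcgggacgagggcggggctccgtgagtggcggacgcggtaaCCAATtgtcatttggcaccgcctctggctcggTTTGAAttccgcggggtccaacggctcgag

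Bub1 (chr2:127831860-127832109, minus strand): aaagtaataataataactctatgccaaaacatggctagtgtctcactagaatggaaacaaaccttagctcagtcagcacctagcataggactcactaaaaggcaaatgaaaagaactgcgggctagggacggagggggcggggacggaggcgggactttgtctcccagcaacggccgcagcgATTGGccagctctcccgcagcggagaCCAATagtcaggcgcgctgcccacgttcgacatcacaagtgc

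Kif23 (chr9:61946800-61947049, minus strand): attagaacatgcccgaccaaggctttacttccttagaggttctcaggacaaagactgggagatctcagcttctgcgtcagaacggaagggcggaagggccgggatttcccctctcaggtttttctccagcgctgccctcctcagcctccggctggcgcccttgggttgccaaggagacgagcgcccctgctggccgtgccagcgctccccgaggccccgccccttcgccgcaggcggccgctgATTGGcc

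Mcm6 (chr1:128359706-128359955, minus strand): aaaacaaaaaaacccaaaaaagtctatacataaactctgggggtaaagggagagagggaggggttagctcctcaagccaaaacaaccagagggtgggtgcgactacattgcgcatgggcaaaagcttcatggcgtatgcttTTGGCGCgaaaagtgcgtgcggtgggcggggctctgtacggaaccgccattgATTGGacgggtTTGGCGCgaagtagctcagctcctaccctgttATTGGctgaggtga

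Pcna (chr2:132253181-132253430, minus strand): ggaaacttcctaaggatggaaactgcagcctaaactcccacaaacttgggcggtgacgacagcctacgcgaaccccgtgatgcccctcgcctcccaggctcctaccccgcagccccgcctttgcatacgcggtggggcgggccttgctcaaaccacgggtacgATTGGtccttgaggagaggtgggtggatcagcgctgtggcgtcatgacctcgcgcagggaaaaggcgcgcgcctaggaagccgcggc

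Rrm1 (chr7:102441445-102441694, plus strand): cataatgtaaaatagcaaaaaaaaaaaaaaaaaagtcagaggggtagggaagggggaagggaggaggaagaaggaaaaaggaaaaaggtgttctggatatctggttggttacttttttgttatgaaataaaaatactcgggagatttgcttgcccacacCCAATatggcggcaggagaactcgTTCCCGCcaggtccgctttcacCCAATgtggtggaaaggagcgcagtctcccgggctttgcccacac

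The CHR was found in 16 of 22 windows of mitosis genes (72.7%), in 1 of 14 windows of replication genes (7.14%, that of Mcm2) and in 17.9% of all 32851 windows. An E2F core was found in 8 of 14 windows of replication genes (57.1%), in 3 of 22 windows of mitosis genes (13.6%) and in 6.81% of all windows. CCAAT boxes occurred in 19 of 22 mitosis windows (86.4%) and 9 of 14 replication windows (64.3%), against 37.4% of all windows. These are counts of letters and not of bound sites. In Prc1 the stretch shown ends at the second of 2 annotated starts, its CHR begins 30 bases and its CCAAT box 62 bases before that start, and both matches fall in the other window too. The window of Bub1 held 2 CCAAT boxes and no CHR match, and that of Kif23 held a CHR beginning at base 3 of the transcript, beyond the stretch shown. Mcm6 held E2F cores beginning 109 and 46 bases before the start, Rrm1 held 1, and Pcna held none of the E2F letters searched.

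**Figure D1:**
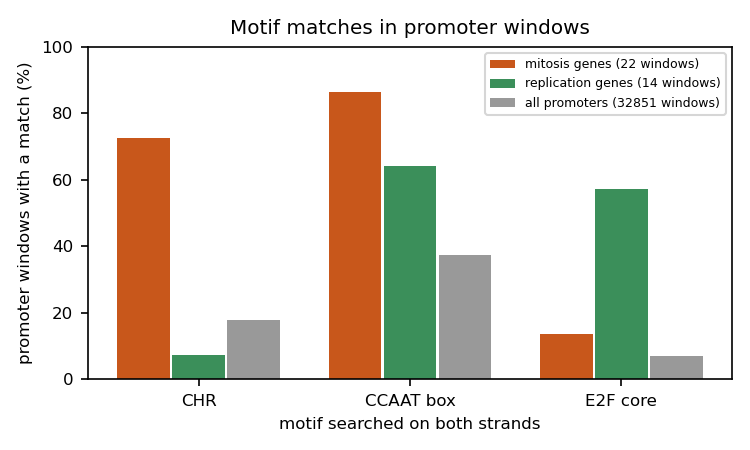
Share of promoter windows, in percent, that hold at least 1 match to each motif on either strand. Bars stand for windows of mitosis genes, of replication genes and of all promoters in the table. The CHR reaches 72.7% in mitosis windows and 7.14% in replication windows, and the E2F core 13.6% and 57.1% in the same order of groups.

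Before the members' values, 2 facts about the arrays bear on all of them. Every mouse is labelled male, yet Xist lay at 10.36 to 10.59 and Uty, Kdm5d and Eif2s3y on the Y chromosome at 3.08 to 4.00 in stabilized replicates 1 and 4 and knockout replicates 1 and 3, while in the remaining arrays Xist lay at 4.18 to 4.62 and the Y-linked genes at 6.71 to 8.35. Both groups hold 2 arrays of each pattern. Lung identity was borne out in all 8 arrays by Sftpc (type 2 cells, 13.00 to 13.29) and Ager (type 1 cells, 11.90 to 12.13). Ctnnb1 itself differed by 0.09 ± 0.06 (SE, n = 4 per group, limma adjusted p = 0.42), which does not check the genotype because the altered exons are not given.

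Over all 8 arrays most mitosis genes had a higher mean in stabilized than in knockout lungs, by small amounts, and few passed the test singly. Of 25 measured, Prc1 and Bub1 rose, 0 fell and 23 missed the threshold (limma, threshold of 0.05 after Benjamini-Hochberg adjustment across 19937 genes). Over all genes 9.62% passed, 4.65% as higher and 4.96% as lower, so 2 of 25 is near the background. Among the 16 replication genes 0 passed, and 2 of them (12.5%), Mcm6 and Pcna, had an unadjusted p under 0.05, as did 5 mitosis genes (20%) and 24.7% of all genes. Pcna was read here from the brighter of its 2 probe sets, and the other one gave a difference of 0.01. The median difference, stabilized minus knockout, was 0.10 for the mitosis genes and 0.02 for the replication genes, beside -0.0069 over all genes. The difference was above 0 in 21 of 25 mitosis genes, in 9 of 16 replication genes and in 47.8% of all genes. This count of mitosis genes differed with the Xist pattern, a split added after the data were seen: 12 of 25 lay above 0 among the 4 arrays with high Xist (median -0.0012) and 22 of 25 among the 4 with low Xist (median 0.18), where 52.1% and 46.2% of all genes did. Of the replication genes 10 of 16 and 6 of 16 lay above 0 in these arrays. Knockout replicate 1 is one of the arrays with high Xist, and whether the difference depends on the pattern was not tested. The groups did not overlap in Prc1, Ccnb2 (narrowly) and Mcm6, higher in the first 2 and lower in Mcm6. Over all genes the groups did not overlap in 16.9%, 9.06% as higher and 7.82% as lower. Median centring of the arrays moved the share of higher calls to 61.2%, beside 48.4% in the values as deposited. It also moved the median over all genes from -0.0069 to 0.0254. With that shift 24 mitosis genes lay above 0, of which Cdk1, Aurka and Birc5 were added at 0.0133 to 0.0303. Prc1 and Bub1 were again the ones that passed.

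**Figure D2:**
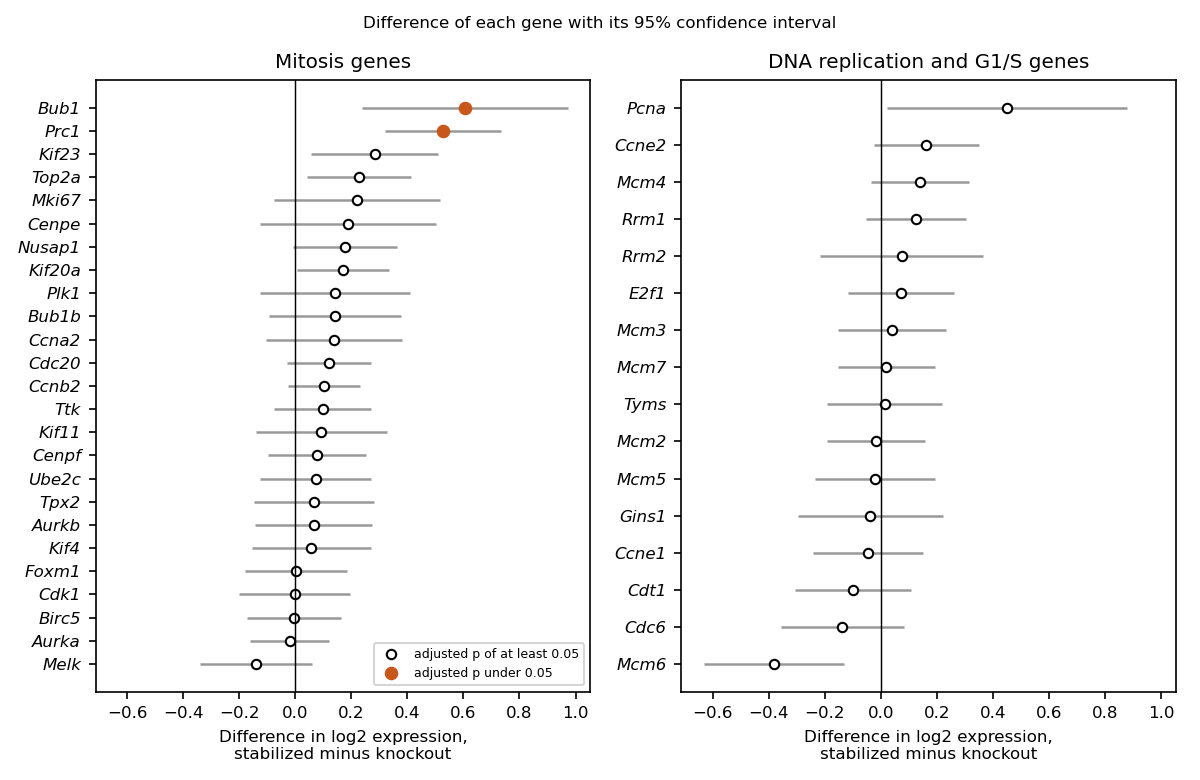
Difference in log2 expression (stabilized minus knockout, horizontal axis) of each measured gene with its 95% confidence interval, mitosis genes at the left and replication and G1/S genes at the right. Filled points passed the adjusted threshold. Bub1 and Prc1 at 0.60 and 0.53 stand above the other mitosis genes, and Mcm6 at -0.38 and Pcna at 0.45 mark the ends of the replication panel. Pcna is drawn from its brighter probe set only.

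Prc1 gave the clearest difference of the set. Its protein crosslinks antiparallel microtubules in the spindle midzone, where the cleavage plane forms. It read 6.55, 6.61, 6.58 and 6.20 in stabilized replicates 1 to 4, on the log2 scale, against 5.97, 6.09, 5.95 and 5.83 in knockout replicates 1 to 4. All stabilized lungs lay above all knockout lungs, and stabilized replicate 4 was the lowest of its group. The difference was 0.53 ± 0.10 (SE, n = 4 per group), a 1.44-fold increase with limma adjusted p = 0.0039. It passed with each array left out in turn, at 0.48 to 0.62, and was 0.41 among arrays with high Xist and 0.64 among those with low Xist.

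Other proteins of the midzone and of cytokinesis did not pass. Kif23, a motor subunit of centralspindlin, read 6.98, 6.85, 6.98 and 6.52 in stabilized lungs, against 6.70, 6.59, 6.52 and 6.39 in knockout lungs. Stabilized replicate 4 was again the lowest of its group and the only one inside the knockout range, and the difference was 0.28 ± 0.10 (SE, limma adjusted p = 0.11). It passed without that array (adjusted p = 0.015). Kif20a, a motor that carries the chromosomal passenger complex to the midzone, differed by 0.17 ± 0.08 (SE), and Kif4, a chromokinesin and partner of Prc1, differed by 0.06 ± 0.10 (SE). The 95% interval for Kif4 ran from -0.15 to 0.27, which lies below the estimate for Prc1.

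Among the kinases of the spindle checkpoint, which delays anaphase until every chromosome is attached, Bub1 rose and its relatives did not pass. Bub1 read 5.75, 5.89, 5.19 and 5.69 in stabilized lungs, against 5.44, 5.04, 4.62 and 4.99 in knockout lungs. Stabilized replicate 3 lay below knockout replicate 1, so the groups overlapped. The difference was 0.60 ± 0.17 (SE, n = 4 per group), or 1.52-fold, with limma adjusted p = 0.042. The call held in 2 of 8 leave-one-out fits, those without stabilized replicate 3 or knockout replicate 1 (adjusted p = 0.0098 to 0.13 over the 8), and was lost with an intensity trend in the prior (adjusted p = 0.051) and with Xist as a covariate (adjusted p = 0.050), while the difference itself stayed between 0.47 and 0.75 when single arrays were left out. Bub1b, which encodes the checkpoint protein BUBR1, differed by 0.14 ± 0.11 and Ttk, the kinase MPS1, by 0.10 ± 0.08 (SE). At the kinetochore, the motor Cenpe differed by 0.19 ± 0.14 and Cenpf by 0.08 ± 0.08 (SE).

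The general proliferation markers did not pass. Mki67, which encodes Ki-67, a coat protein of mitotic chromosomes, read 7.65, 7.68, 7.88 and 7.65 in stabilized lungs, against 7.88, 7.39, 7.63 and 7.09 in knockout lungs. The knockout lungs spread more widely (SD 0.34, against 0.11 in stabilized lungs), and knockout replicate 1 equalled the highest stabilized lung to 2 decimals. The difference was 0.22 ± 0.14 (SE, limma adjusted p = 0.35), with a 95% interval of -0.08 to 0.52. It was 0.35 without knockout replicate 1 and 0.08 without knockout replicate 4, and did not pass in any leave-one-out fit. Among arrays with high Xist it was -0.10 and among those with low Xist 0.54. Top2a, the topoisomerase that untangles sister chromatids, read 7.44, 7.32, 7.45 and 7.37 in stabilized lungs, against 7.42, 7.11, 7.05 and 7.08 in knockout lungs. Here knockout replicate 1 alone lay within the stabilized range, and the difference of 0.23 ± 0.09 (SE, limma adjusted p = 0.12) reached adjusted p = 0.014 without that array and 0.039 with array weights. A dimmer probe set annotated to Top2a, at 2.55 to 3.01, gave -0.08, and the mean of both gave 0.07.

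**Figure D3:**
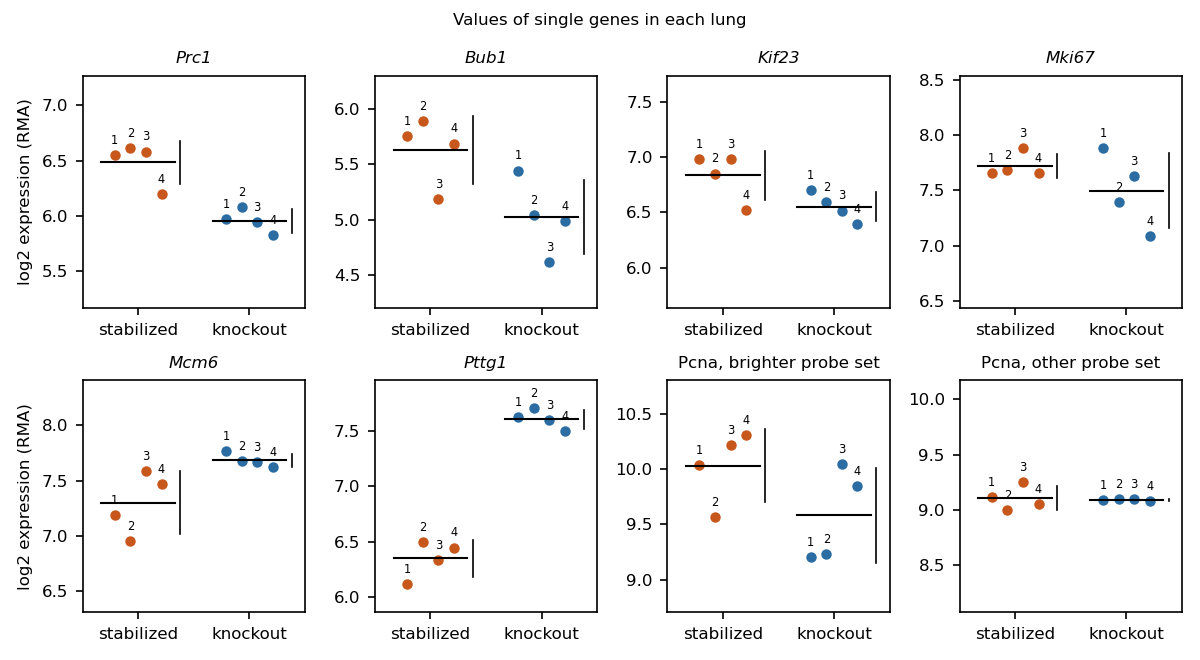
Log2 expression of single genes in each lung, stabilized at the left and knockout at the right of every panel, with replicate numbers above the points, group means as horizontal lines and standard deviations as vertical lines (n = 4 each). Every panel spans the same range of log2 units. Prc1, Mcm6 and Pttg1 show no overlap, and the probe sets of Pcna disagree.

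In the engine of mitotic entry no gene passed. Cdk1, the kinase that starts mitosis, read 6.44, 6.50, 6.49 and 6.65 in stabilized lungs, against 6.77, 6.56, 6.38 and 6.39 in knockout lungs. The 95% interval of its difference ran from -0.20 to 0.20, so a change larger than that in either direction lies outside it. Its partners Ccna2 and Ccnb2, cyclins A2 and B2, differed by 0.14 ± 0.11 and 0.10 ± 0.06 (SE). Ccnb2 was higher in every stabilized lung, at 6.421 to 6.512 against 6.324 to 6.418 in knockout lungs, yet missed the threshold (limma adjusted p = 0.32). The groups were thus barely apart. Foxm1, the transcription factor of the G2 and M program, differed by 0.0029 ± 0.08 (SE).

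The other mitotic kinases also missed the threshold. Plk1, a kinase of spindle poles and cytokinesis, differed by 0.14 ± 0.12, Aurka and Aurkb, the aurora kinases of spindle poles and of the passenger complex, by -0.02 ± 0.06 and 0.07 ± 0.10, and Birc5, the passenger subunit survivin, by -0.0060 ± 0.08 (SE, n = 4 per group). Melk, a kinase of cycling progenitors, had the lowest difference of the mitosis genes at -0.14 ± 0.09 (SE, limma adjusted p = 0.38). Cdc20 and Ube2c, which activate and charge the anaphase-promoting complex, differed by 0.12 ± 0.07 and 0.07 ± 0.09 (SE). Of the spindle assembly genes, the bipolarity motor Kif11 differed by 0.09 ± 0.11, and the microtubule-binding proteins Tpx2 and Nusap1 by 0.07 ± 0.10 and 0.18 ± 0.08 (SE). Nusap1 was tight in stabilized lungs, at 5.47 to 5.53, against 5.17 to 5.54 in knockout lungs.

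Within the knockout group, replicate 1 stood apart. It was the highest knockout lung in 21 of 25 mitosis genes and in 10 of 16 replication genes. The mean over the mitosis genes was 6.10, 6.12, 6.18 and 6.14 in stabilized replicates 1 to 4, against 6.19, 5.95, 5.95 and 5.91 in knockout replicates 1 to 4. Knockout replicate 1 thus lay above all stabilized lungs, and the others below all of them. Leaving it out raised the median difference of the mitosis genes to 0.15 and added Top2a to the 2 that passed, while 7.51% of all genes then passed. The markers of T and NK cells were also highest in that lung, at a mean of 7.34, against 6.82, 7.10 and 6.62 in knockout replicates 2 to 4, and lay at 5.90, 5.90, 6.19 and 6.11 in stabilized replicates 1 to 4. Of these 16 markers 14 fell and 0 rose in stabilized lungs, among them Il7r, and of 13 B cell markers 12 fell, among them Cd79a. Of all genes 4.96% fell. The part of T, NK and B cells in the mitosis values was not tested.

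**Figure D4:**
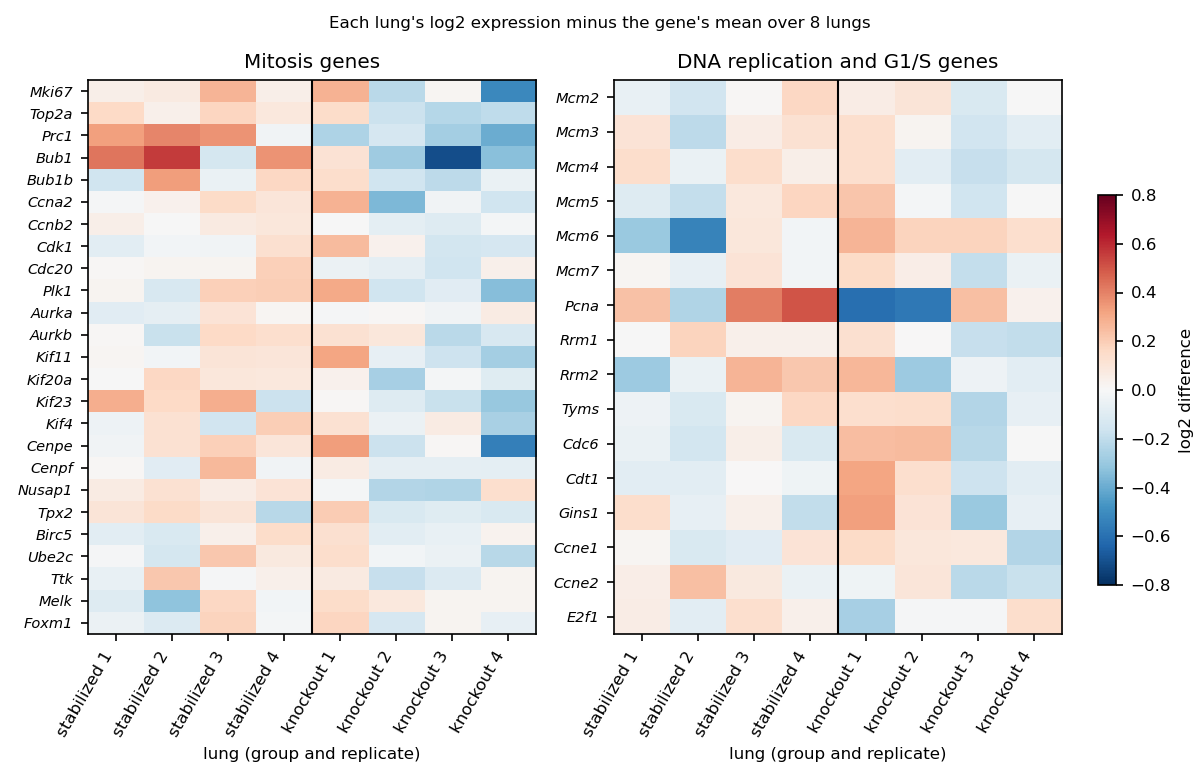
Log2 expression in each lung minus the mean of that gene over the 8 lungs, in log2 units, for mitosis genes (left) and replication and G1/S genes (right), with stabilized lungs left of the black line and knockout lungs right of it. Red is above and blue below the mean, and the colours saturate at the ends of the scale. Knockout replicate 1 is red in most rows, the other knockout lungs are mostly blue in the mitosis panel, and Pcna has low values in knockout replicates 1 and 2.

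The replication genes showed no shared direction. Their mean was 6.73, 6.63, 6.83 and 6.81 in stabilized replicates 1 to 4, against 6.84, 6.75, 6.63 and 6.68 in knockout replicates 1 to 4, so the groups overlapped throughout. Within each lung the mean of the mitosis genes lay below that of the replication genes, by a difference of -0.63, -0.51, -0.65 and -0.67 in stabilized lungs, against -0.65, -0.80, -0.69 and -0.77 in knockout lungs. Stabilized replicates 1, 2 and 3 lay above the knockout range on this measure, stabilized replicate 3 narrowly, and stabilized replicate 4 lay within it. The replication mean holds Pcna from its brighter probe set, which disagrees with the other one. With the other one in its place, the groups would not overlap on this measure.

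Mcm6, a subunit of the hexameric MCM2-7 helicase, came closest to a decrease. It read 7.19, 6.96, 7.59 and 7.47 in stabilized lungs, against 7.76, 7.67, 7.67 and 7.62 in knockout lungs. All stabilized lungs lay below all knockout lungs, and they spread more (SD 0.28, against 0.06). The difference was -0.38 ± 0.12 (SE, limma adjusted p = 0.059), and it was -0.38 within arrays of either Xist pattern. It passed without stabilized replicate 3 or without stabilized replicate 4 (lowest adjusted p = 0.019), with genes of a mean log2 under 5 left out (adjusted p = 0.048) and with an intensity trend in the prior (adjusted p = 0.040).

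The other MCM subunits, which form the helicase with Mcm6, had differences closer to 0. Mcm2 and Mcm5 each differed by -0.02, Mcm7 by 0.02, Mcm3 by 0.04 and Mcm4 by 0.14, with SE of 0.08 to 0.10 and 95% intervals that lay between -0.23 and 0.31. The loaders Cdc6 and Cdt1, which place the helicase on origins, differed by -0.14 ± 0.10 and -0.10 ± 0.10 (SE). Both were highest in knockout replicates 1 and 2. Gins1, part of the active helicase, differed by -0.04 ± 0.12 (SE).

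Pcna, the sliding clamp of DNA polymerases, depended on the probe set. The brighter one read 10.04, 9.56, 10.21 and 10.31 in stabilized lungs, against 9.20, 9.23, 10.05 and 9.84 in knockout lungs, a difference of 0.45 ± 0.20 (SE, limma adjusted p = 0.18). The other one, annotated to the same transcripts, read 9.12, 8.9998, 9.25 and 9.06 in stabilized lungs, against 9.09, 9.10, 9.10 and 9.08 in knockout lungs, a difference of 0.01. The spread of the brighter probe set, with knockout replicates 1 and 2 far below 3 and 4, was thus absent from its partner. RefSeq lists 2 Pcna pseudogenes, and which copies each probe set reads was not tested.

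No gene of nucleotide supply or S phase entry passed. Rrm1 and Rrm2, the subunits of ribonucleotide reductase, differed by 0.12 ± 0.08 and 0.07 ± 0.13, and Tyms, which makes thymidylate, by 0.01 ± 0.09 (SE). Rrm2 ran from 6.26 to 6.82 in stabilized lungs and from 6.26 to 6.81 in knockout lungs, the widest spread in this role. The cyclins Ccne1 and Ccne2, which drive entry into S phase, differed by -0.05 ± 0.09 and 0.16 ± 0.09, and the activator E2f1 by 0.07 ± 0.09 (SE). Over these 6 genes the 95% intervals lay between -0.24 and 0.36.

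Wider lists of the same pathways, written by function but with earlier results of these data known, were also counted. Of 80 other mitosis genes 4 rose, 1 fell and 75 did not pass (6.25% passed, against 9.62% of all genes). Their median was 0.09, and 56 of 80 lay above 0 (70%, against 47.8% of all genes). Kpna2, an importin that carries spindle factors, rose by 0.51 ± 0.08 in its brightest probe set (SE, limma adjusted p = 0.0012). When its 3 probe sets were averaged the rise was 0.22, so the others differed less on average. Nuf2 of the NDC80 kinetochore complex, the contractile ring scaffold Anln and the spindle protein Ckap2l rose by 0.36 ± 0.08, 0.34 ± 0.09 and 0.36 ± 0.10 (SE), calls that held in 5, 3 and 3 of 8 leave-one-out fits. Of 60 other replication genes, Rfc3 of the clamp loader and Orc2 of the origin recognition complex rose by 0.27 ± 0.08 and 0.28 ± 0.08, while Dna2, a nuclease and helicase of Okazaki fragment processing, fell by 0.28 ± 0.06 and Orc6 by 0.30 ± 0.07 (SE). The remaining 56 missed the threshold, so 6.67% passed, and the median was 0.05. The shares called in both lists lay below that of all genes. The calls of Rfc3, Orc2, Dna2 and Orc6 held in 2, 1, 7 and 6 leave-one-out fits.

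The decrease in Pttg1 was far outside the range of the other mitosis genes. Pttg1 encodes securin, which holds separase inactive until anaphase. It read 6.12, 6.50, 6.34 and 6.45 in stabilized lungs, against 7.62, 7.71, 7.60 and 7.50 in knockout lungs. The highest stabilized lung lay at 6.50 and the lowest knockout lung at 7.50, and the difference was -1.26 ± 0.09 (SE, n = 4 per group, limma adjusted p = 3.6e-06), or 2.39-fold lower. It stayed between -1.31 and -1.18 with each array left out and was -1.33 and -1.19 within arrays of high and low Xist. Securin's partner separase, encoded by Espl1, differed by 0.02 ± 0.10 (SE).

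Among genes that decide between cycling and rest, most missed the threshold. Of 29 G1 and E2F control genes, Myb fell and 28 did not pass (3.45% passed, against 9.62% of all genes). Their median was 0.01. Myb, a transcription factor of blood progenitors and lymphocytes that also acts in multiciliated cell formation, read 5.91, 5.81, 5.95 and 6.14 in stabilized lungs, against 7.10, 6.87, 6.85 and 6.91 in knockout lungs, a difference of -0.98 ± 0.08 (SE, limma adjusted p = 1.8e-05). The T, NK and B cell markers above and the multiciliated regulators below were lower in the same lungs, and their part in it was not tested. The cyclin D genes Ccnd1 and Ccnd2 differed by 0.13 ± 0.08 and -0.02 ± 0.07, and Mybl2, which encodes the B-MYB of the mitotic activator complex, by -0.18 ± 0.11 (SE). Of 19 cell cycle inhibitors measured, Cdkn2c, which encodes the CDK4 and CDK6 inhibitor p18, rose and 18 did not pass (5.26% passed). Cdkn1a and Trp53 were on this list but were not measured. Cdkn2c read 7.80, 7.89, 7.69 and 7.72 in stabilized lungs, against 7.27, 7.44, 7.22 and 7.38 in knockout lungs, a difference of 0.45 ± 0.07 (SE, limma adjusted p = 0.0020).

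Multiciliated cells reuse cell cycle regulators to multiply centrioles without dividing, and 5 of the 12 regulators measured fell in stabilized lungs. None rose, so 41.7% passed, against 9.62% of all genes, and the median was -0.25. Gmnc, a geminin relative, and Ccno, a cyclin O required for centriole amplification, fell by 0.66 ± 0.13 and 0.54 ± 0.07, Deup1, a scaffold of deuterosomes, by 0.61 ± 0.07, the ciliogenesis factor Foxj1 by 0.62 ± 0.08 and Cdc20b, a Cdc20 relative beside deuterosomes, by 0.37 ± 0.10 (SE). Cdc20 itself, given above, did not pass. The call of Cdc20b held in 3 leave-one-out fits. Of 14 ciliated cell markers 11 (78.6%) fell, with a mean of 5.60 to 5.79 in stabilized lungs, against 6.39 to 6.54 in knockout lungs.

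Erythroid markers, of another compartment that can hold dividing cells, were higher in part. Of 8 measured, 3 rose and 0 fell (37.5% passed, against 9.62% of all genes). Alas2 and the transferrin receptor gene Tfrc were among those that rose, at 0.64 ± 0.11 and 0.51 ± 0.09 (SE). The mean of all 8 was 7.01, 6.94, 6.98 and 6.92 in stabilized lungs, against 6.44, 6.80, 6.57 and 6.71 in knockout lungs. The groups thus did not overlap, and knockout replicate 1, the highest for mitosis genes, was the lowest. The part of these cells in the mitosis values was not tested.

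**Figure D5:**
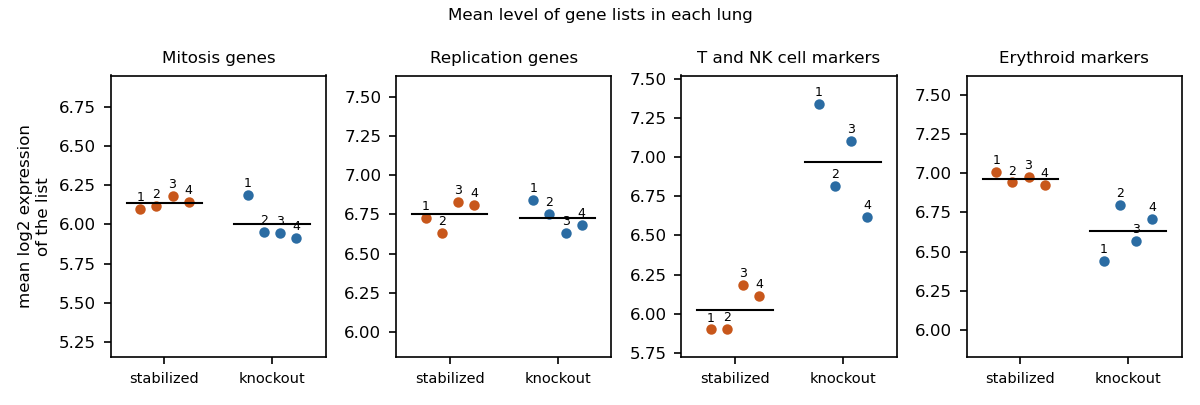
Mean log2 expression of the mitosis genes, the replication genes, the T and NK cell markers and the erythroid markers in each lung, stabilized at the left and knockout at the right of every panel, with replicate numbers above the points and the group mean as a line. Every panel spans the same range of log2 units. Knockout replicate 1 is the highest knockout lung in the first 3 panels and the lowest lung in the last.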

How the data were processed

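Total RNA from 8 mouse lungs was labelled with biotin and hybridised to expression arrays, 4 per group, per the labels' protocols. The authors deposited 1 log2 expression value for each probe set on each array. RMA and affy are the tools named in the submitters' processing notes, with no versions, and the genome build is not given in the sources used here. Array medians of 5.97 to 6.03 show that arrays had been brought to 1 scale, which would hide a change in total RNA. Of the 41 measured genes, 13 had a mean below every array median, where background compresses differences.

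Of 34760 probe sets, 21640 carried 1 symbol in the platform annotation, 1321 several and 11799 no annotation row. Entrez identifiers of 21553 were found in the RefSeq gene table, and 0 symbols changed. Each gene was read from its brightest probe set over the 8 arrays. The groups were compared with limma 3.58.1 in R 4.3.3 (lmFit and eBayes, all 8 arrays, no covariate, no filter on dim genes), with Benjamini-Hochberg adjustment over 19937 genes and a threshold of 0.05. SE is limma's moderated standard error, SD that of 4 arrays, and intervals are 95% intervals from the same fit. The script was tested on simulated data. Promoter sequences come from RefSeq (GRCm38.p6).

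The genes and lists were chosen with earlier results of these data known. The naming rule took all members, Ctnnb1, up to 6 called genes with the smallest p in each wider cell cycle list, in each cell type list the 2 brightest and the 2 called genes with the smallest p, and the sex-linked genes; Espl1, Ccnd1, Ccnd2 and Mybl2 were named after their values were seen. Alternatives were another probe set rule, repeated quantile normalization, median centring, a filter on dim genes, a trended prior, array weights, a replicate block, Xist as a covariate and each array left out in turn. Of the other cell type lists, 12 of 12 club cell, 3 of 10 thymocyte and 4 of 12 muscle markers fell in stabilized lungs. In the same lungs 9 of 12 alveolar type 2, 2 of 10 alveolar type 1, 4 of 10 fibroblast and 3 of 11 macrophage markers rose, and 0 of 12 endothelial markers passed (2 with an unadjusted p under 0.05), beside 9.62% of all genes. None of these 7 lists with calls had members called in both directions.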

Additional observations from a re-analysis of the deposited data

Results flagged for a closer look

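In 9 of 86 groups of 4 lungs, taken over the 41 genes and both list means, a single lung lay far from the rest of its group by Dixon's criterion at the 95% level. For a single group chance gives such a gap in about 1 of 20 cases. The 86 groups share the same lungs and hold related genes and their means, so that rate cannot judge the count of 9.

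Knockout replicate 1 was the high lung in 4 of these: Top2a at 7.42 (others 7.05 to 7.11), Cenpf at 5.51 (others 5.37 to 5.38), Tpx2 at 6.60 (others 6.27 to 6.30) and the mean of the mitosis genes at 6.19 (others 5.91 to 5.95). Stabilized replicate 4 was the low lung for Prc1 at 6.20 (others 6.55 to 6.61) and for Tpx2 at 6.17 (others 6.50 to 6.55), and the high lung for Cdc20 at 6.60 (others 6.42 to 6.44). Mki67 was high in stabilized replicate 3 at 7.88 (others 7.65 to 7.68). Ccne1 was low in knockout replicate 4 at 5.46 (others 5.79 to 5.85).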

How the results depend on the processing

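Prc1 passed under every alternative run. The count of mitosis genes that passed was 2 in the comparison as reported, 1 with a trended prior and 1 with Xist as a covariate, where Bub1 was lost, 3 with array weights, where Top2a was added, and 1 to 3 with single arrays left out. Prc1 alone passed when stabilized replicate 1 or 2, or knockout replicate 2, 3 or 4, was left out. The count of replication genes was 0 as reported, 1 with dim genes left out and 1 with a trended prior (Mcm6 in both). It was 1 with the replicate block (Pcna, by its brighter probe set) and 0 to 1 with single arrays left out. The median difference ranged from 0.06 to 0.15 for the mitosis genes and from -0.03 to 0.06 for the replication genes with single arrays left out, and was 0.15 and 0.02 after repeated quantile normalization. Over all genes 1917 passed, and 1216 to 1839 with single arrays left out, fewest without stabilized replicate 1 and, at 1235, without knockout replicate 3. The labels do not say whether replicate numbers pair the lungs. Correlations of deviations between same-numbered lungs were -0.0051 to 0.08, with the own number best for replicate 2 only, which cannot settle it. With the replicate block 1828 genes passed, among them 3 mitosis genes, Kif23 being added (limma adjusted p = 0.042).

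Differences near 0 changed sign without passing, after repeated quantile normalization Cdk1 (0.0310), Aurka (0.0274), Birc5 (0.0676), Mcm7 (-0.00835), Gins1 (0.0225), Ccne1 (0.0258); after median centring Cdk1 (0.0303), Aurka (0.0133), Birc5 (0.0263), Mcm2 (0.0145), Mcm5 (0.0111); with array weights Cdk1 (0.00222), Birc5 (0.0161), Mcm5 (0.0139), Gins1 (0.0209). With single arrays left out, the ranges that crossed 0 were -0.0505 to 0.0815 (Cdk1), -0.0580 to 0.00794 (Aurka), -0.0185 to 0.119 (Kif4), -0.0563 to 0.0350 (Birc5), -0.0568 to 0.0606 (Foxm1), -0.0762 to 0.0298 (Mcm2), -0.00400 to 0.116 (Mcm3), -0.0821 to 0.0498 (Mcm5), -0.0414 to 0.0722 (Mcm7), -0.0100 to 0.184 (Rrm2), -0.0624 to 0.0626 (Tyms), -0.142 to 0.0647 (Gins1), -0.00371 to 0.132 (E2f1) and -0.0254 to 0.0716 (Sftpc). The cause was not tested.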

Other observations

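Neighbours in gene order were counted for the genes that stood out or lay near the threshold, and for called genes of the wider mitosis list, as the 5 nearest measured genes on either side in the RefSeq gene table, a rule chosen after the values were seen. Of 10 neighbours, 3 passed for Nuf2 and for Anln, 2 for Pcna, 1 each for Prc1, Bub1, Mcm6, Ckap2l and Pttg1, and 0 for Kpna2, beside 9.62% of all genes. These counts follow the place of the gene, and where the probe sets themselves lie was not examined. That limits the counts for Pcna and Kpna2, whose probe sets differ. Next to Nuf2 lie Rgs5 and Rgs4, regulators of G protein signalling, which rose by 1.65 ± 0.10 and 0.92 ± 0.08 (SE, n = 4 per group, limma adjusted p = 2.0e-06 and 1.7e-05). The neighbour of Mcm6 that passed was the adjacent Cxcr4, a chemokine receptor gene of leukocytes, which fell by 0.60 ± 0.09 (SE, limma adjusted p = 0.0014). Near Ckap2l, Il1b, which encodes a cytokine of myeloid cells, rose by 1.16 ± 0.10 (SE, limma adjusted p = 2.1e-05).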
